A study of Mus musculus with 12 samples.

Results

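Teratomas with and without high Dnmt3l transcript were compared, as 6 libraries against 6 out of 12 in the series. The members were chosen by a measured value: a library belonged to the Dnmt3l-high set if its estimated count of Dnmt3l was at least 400, and to the Dnmt3l-low set otherwise. The high set held the 3 WT and the 3 K412R libraries, and the low set held the 3 ET libraries (control vector) and the 3 libraries labelled K238R. All teratomas came from mouse R1 embryonic stem (ES) cells that carried the pEZ-LV235 lentiviral vector with its CAG promoter, either as a control vector (ET) or with Dnmt3L, as wild type (WT) or with an acetylated lysine replaced by arginine (K238R and K412R). The study asked whether these mutants act like the wild type in differentiation. By the sample records the ES cells were grown in serum with 100 IU/ml LIF, whereas the study's methods give a higher concentration. The cells were injected under the skin of male NOD-Prkdc EM1 mice aged 8 weeks, and the tumours were collected at day 21. Each construct was 1 selected cell line, so a difference between constructs and a difference between lines cannot be told apart. Host and graft are both mouse, so transcripts of host vessels and blood cells were counted with those of the tumour. In bulk RNA from a mixed tumour, fewer cells of a type and less RNA per cell cannot be told apart.

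Dnmt3L resembles the de novo DNA methyltransferases but lacks catalytic activity. It binds Dnmt3a and Dnmt3b and stimulates them, and it is best known in germ cells, where it is needed for maternal imprints and for silencing of transposons in male germ cells. A teratoma is a disordered tumour in which pluripotent cells form derivatives of all germ layers, among them neural tissue, epidermis, ciliated epithelium and muscle. Its transcriptome therefore reads out tissue composition together with any effect of the construct.

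The WT libraries held 2941, 3643 and 3581 counts of Dnmt3l, and K412R held 699, 677 and 463. ET libraries held 39, 11 and 137 counts, and those labelled K238R held 35, 20 and 10. The libraries nearest the limit of 400 were ET replicate 3 with 137 and K412R replicate 3 with 463. Scaled to library size (CPM), Dnmt3l was 3.52 ± 3.73 in ET, 34.7 ± 8.5 in K412R, 1.17 ± 0.67 in the libraries labelled K238R and 194.5 ± 27.0 in WT (SD, n = 3 each). These values chose the sets and were not tested. In all 3 libraries labelled K238R the transcript was at the level of ET, which goes against their label, and reads of the construct and of the endogenous gene cannot be told apart in gene counts. Dnmt3l was left out of every count below. The ranges of depth overlapped, with 16957677 to 18546100 counts per library in the low set and 17529003 to 17950246 in the high set. The transcript Gm26917 took 7.47 to 11.8% of counts in the low set and 7.47 to 13.9% in the high set, and mitochondrial genes took 4.22 to 5.85% and 4.74 to 6.23%.

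**Figure D1:**
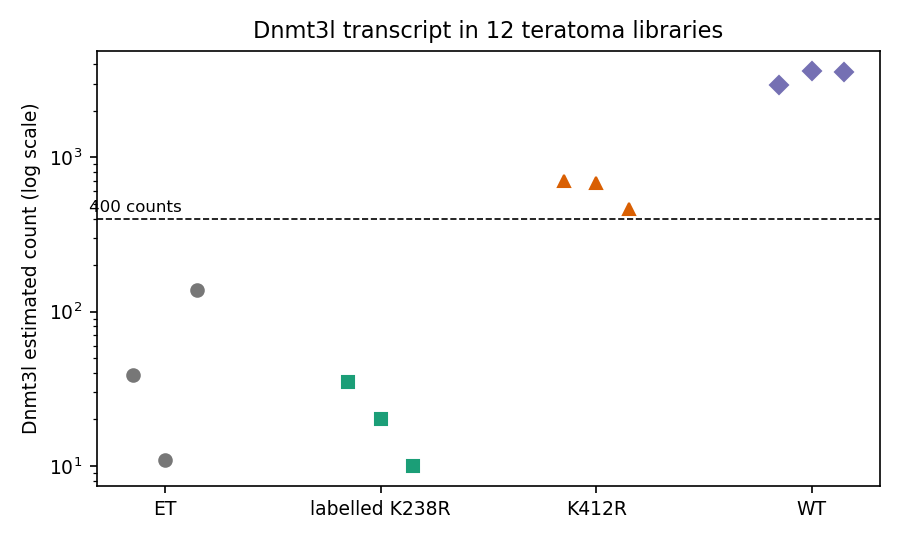
Estimated count of Dnmt3l (log axis) in each of 12 libraries, 3 per labelled group, with the limit of 400 counts as a dashed line. ET and the libraries labelled K238R lie between 10 and 137, K412R between 463 and 699, and WT between 2941 and 3643.

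The keratin genes Krt7 and Krt6a were among the leading genes that were higher in the high set, and the meiotic gene Ccnb1ip1 was among those that were lower, but with all 12 libraries 1 gene passed the adjusted threshold. Each gene was tested by the edgeR quasi-likelihood test with 1 mean per labelled group, and genes with an adjusted p under 0.05 were called. Of 18404 genes, 1 was called (0.00543%), Gm15128, and it was lower. Another 19 had an adjusted p between 0.05 and 0.10, so that 16 higher and 4 lower genes in all had one under 0.10. An unadjusted p under 0.05 was reached by 3125 genes (17.0%), 1515 of them higher and 1610 lower in the high set. By the criterion of a 2-fold difference with an unadjusted p under 0.05, 528 genes differed, of which 290 were higher (1.58%) and the others lower (1.29%). All 6 high libraries lay above all 6 low libraries for 65 genes (0.353%) and below them for 46 genes (0.250%).

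The count of called genes turned on 1 library, an ET teratoma. The study's text names an outlier in its control group without giving the replicate. Without ET replicate 2, 1348 genes were called higher (7.18% of 18774) and 905 lower (4.82%), and the groups of 5 low and 6 high libraries did not overlap for 510 higher and 232 lower genes. No other omission gave more than 21 calls, the number without WT replicate 1. Of the genes called without ET replicate 2, ET replicate 2 itself lay above all other low libraries for 1118 of the 1348 higher ones (82.9%) and below all of them for 674 of the 905 lower ones (74.5%). For 1252 and 841 of them it reached at least the nearest of the high libraries. Since almost none of these genes was called with that library included, its position in them follows from how they were selected and is a description. On the leading principal component of the 500 most variable genes, which held 39.5% of their variance, ET replicate 2 scored 11.8 against -9.6 and -31.8 in the other ET libraries. Of the 65 and 46 genes that did not overlap with all 12 libraries, 56 and 30 were called without it. Gene results are given with all libraries and, where stated, without ET replicate 2, a choice made after the data were seen. That library was taken because its omission moved the counts most. Calls and adjusted p-values without it are therefore descriptions and not independent support. DESeq2 called 589 of 18398 genes with all 12 libraries, 374 of them higher and 215 lower. Its counts of list members below are to be read against these numbers.

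**Figure D2:**
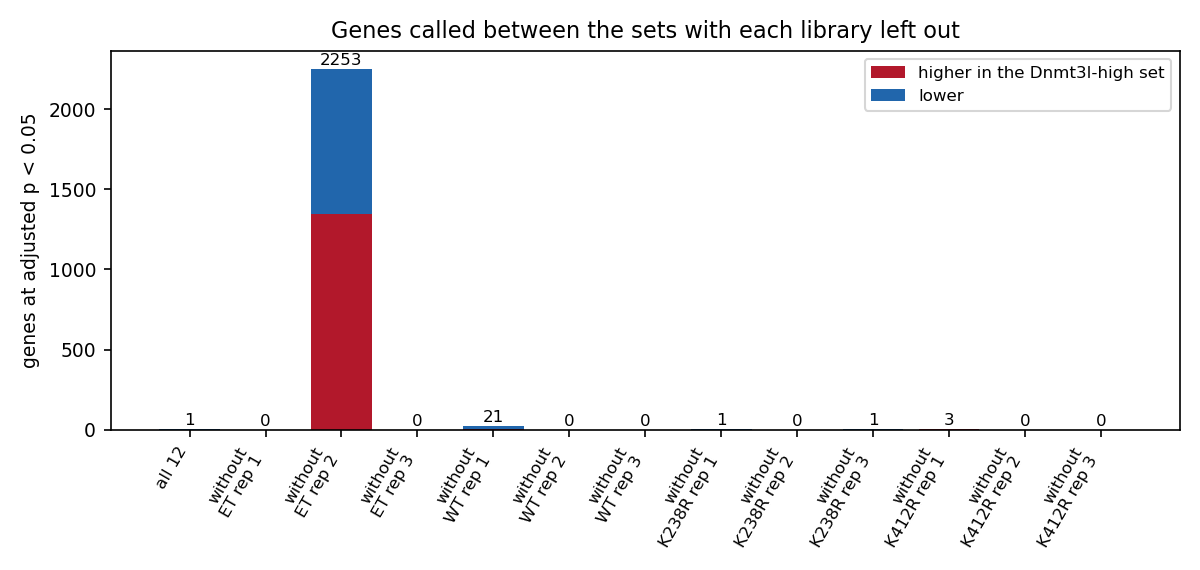
Number of genes with an adjusted p under 0.05 (edgeR) between the Dnmt3l-high and Dnmt3l-low sets, with all 12 libraries and with each library left out, stacked by direction. The bar without ET replicate 2 reaches 2253 genes, against 1 with all libraries and 0 to 21 without any other library.

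The 10 leading genes that were higher without overlap were Fbxo32, Itgb7, Krt7, Krt6a, Pof1b, Pcdhga1, F3, Arhgef5, Slc44a1 and Tlr4. With all libraries none was called, at adjusted p between 0.0526 and 0.0933 (edgeR), and without ET replicate 2 all 10 were, at adjusted p between 0.000407 and 0.0103. Krt7 encodes a keratin of simple epithelia. Its lowest, median and highest levels were 17.3, 20.5 and 32.9 CPM in the low set and 39.1, 47.1 and 62.3 CPM in the high set. The log2 fold change was 1.08 (standard error 0.16), and it was 1.28 without ET replicate 2, which held the highest of the low values. Krt6a, a keratin of stratified epithelia that is induced in wounded and proliferating keratinocytes, was at 2.82, 4.51 and 7.25 CPM in the low set and at 10.1, 12.2 and 17.3 CPM in the high set. Its log2 fold change was 1.495 (standard error 0.23). For both keratins the 6 high libraries lay above the 6 low ones, and the highest low library was ET replicate 2.

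Other genes of this group belong to epithelial junctions, coagulation and signalling. Pof1b, an actin-binding protein of epithelial cell junctions, was at 0.895, 1.14 and 1.70 CPM in the low set and at 2.34, 2.77 and 5.05 CPM in the high set, a log2 fold change of 1.35 (standard error 0.22). F3, which encodes tissue factor, the initiator of coagulation, was at 15.7, 17.3 and 25.2 CPM against 27.6, 28.7 and 35.5 CPM, a log2 fold change of 0.71 (standard error 0.12). Itgb7, the beta subunit of lymphocyte-homing integrins, was at 1.27, 1.63 and 2.45 CPM against 2.85, 3.42 and 5.44 CPM, a log2 fold change of 1.17 (standard error 0.17). Tlr4, the receptor for lipopolysaccharide, was expressed at 2.96 to 4.44 CPM in the low set and 4.96 to 6.67 CPM in the high set. Fbxo32, a ubiquitin ligase subunit known from muscle atrophy, reached 15.1 to 20.3 CPM and 23.7 to 36.8 CPM, a log2 fold change of 0.63 (standard error 0.09). For Arhgef5, a guanine nucleotide exchange factor, the log2 fold change was 0.57, for Slc44a1, a choline transporter, it was 0.31, and for Pcdhga1, a gamma-protocadherin, it was 0.50. Genes of the gamma-protocadherin cluster share their last exons, so counts of Pcdhga1 depend on how reads of the shared exons were split. Krt14, Krt75, Sfn, Perp, Serpinb5, Trim29, Klk10 and Psca, all known from stratified or glandular epithelia and picked here after their values were seen, were also among the 65 genes without overlap, at log2 fold changes between 0.72 (Sfn) and 1.63 (Krt75).

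**Figure D3:**
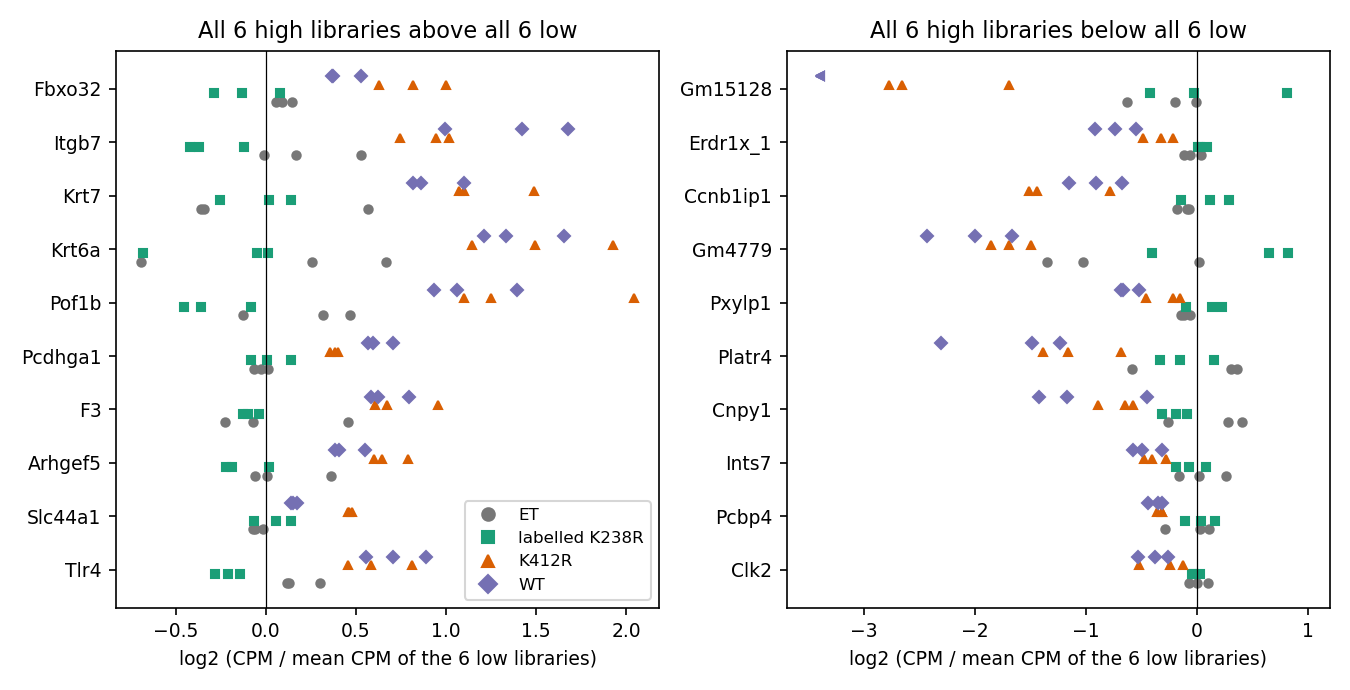
Level of the 10 leading genes above (left) and below (right) in every library, as log2 of CPM over the mean CPM of the 6 low libraries. Symbols stand for the 4 labelled groups, and the left-pointing symbol at the edge marks the 3 WT libraries in which Gm15128 had no count. Every WT and K412R symbol lies to the right of every low symbol on the left panel and to the left on the right panel.

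The promoters of leading genes of either direction are shown because CpG dinucleotides, the substrate of the enzymes that Dnmt3L assists, are set in capitals in them. They are RefSeq windows of 300 bases on GRCm38.p6, from 250 bases before to 50 after the start. Itgb7 at chr15:102231886-102232185 (minus strand) held 5 CpG, Krt7 at chr15:101412153-101412452 (plus strand) held 21, Ccnb1ip1 at chr14:50795679-50795978 (minus strand) held 13 and Gm4779 at chrX:101794396-101794695 (minus strand) held 22.
Itgb7: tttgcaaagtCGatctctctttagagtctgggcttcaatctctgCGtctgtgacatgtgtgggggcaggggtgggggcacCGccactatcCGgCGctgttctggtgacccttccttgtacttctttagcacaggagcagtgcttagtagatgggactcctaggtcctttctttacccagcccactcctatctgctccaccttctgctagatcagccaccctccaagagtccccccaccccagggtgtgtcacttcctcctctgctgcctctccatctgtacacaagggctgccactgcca
Krt7: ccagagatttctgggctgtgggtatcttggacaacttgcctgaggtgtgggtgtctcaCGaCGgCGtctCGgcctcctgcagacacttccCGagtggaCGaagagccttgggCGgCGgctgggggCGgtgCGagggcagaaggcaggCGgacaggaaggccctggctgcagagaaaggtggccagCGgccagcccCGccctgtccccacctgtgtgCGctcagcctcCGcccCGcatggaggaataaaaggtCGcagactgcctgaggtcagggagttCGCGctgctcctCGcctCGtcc
Ccnb1ip1: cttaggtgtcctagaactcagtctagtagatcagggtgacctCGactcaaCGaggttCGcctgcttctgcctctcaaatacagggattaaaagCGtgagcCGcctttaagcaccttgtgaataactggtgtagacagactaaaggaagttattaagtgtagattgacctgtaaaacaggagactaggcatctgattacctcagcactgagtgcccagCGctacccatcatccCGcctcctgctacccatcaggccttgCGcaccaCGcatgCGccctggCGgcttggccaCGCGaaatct
Gm4779: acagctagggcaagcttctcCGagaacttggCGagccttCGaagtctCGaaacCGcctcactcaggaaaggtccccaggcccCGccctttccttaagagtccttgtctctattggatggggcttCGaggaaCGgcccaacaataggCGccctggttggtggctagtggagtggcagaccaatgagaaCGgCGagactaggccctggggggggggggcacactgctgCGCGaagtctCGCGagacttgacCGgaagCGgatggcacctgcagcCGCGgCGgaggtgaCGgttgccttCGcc
The median over 27025 genes with an entry was 7 CpG per window. Those entries include genes not tested here, so values over all entries are no background for the 4 windows. The letters GCGGGA, read on both strands, occurred in the Ccnb1ip1 window and in 20% of all windows, and CACGTG, which 7.24% of windows held, occurred in none of the 4. An entry was found for 74.7% of the genes tested, which is under the 80% required here, so no summary of CpG over gene sets is given. Methylation was not measured in these libraries.

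Fbxo32, Itgb7, Krt7 and Krt6a all lie on chromosome 15, and the genes of that chromosome as a whole stood higher in K412R. The median deviation over its 724 tested genes, as log2 CPM less the gene's mean over all 12 libraries, was 0.133, 0.195 and 0.165 in the 3 K412R libraries, -0.110 to -0.0886 in WT, -0.0949 to 0.0480 in ET and -0.0972 to 0.0137 in the libraries labelled K238R. Chromosome 15, with 724 of the 18404 genes tested, held 9 of the 65 genes that were higher without overlap and 0 of the 46 that were lower. Over all genes the shares without overlap were 0.353% higher and 0.250% lower. Its median log2 fold change between the sets was 0.05 against -0.01 over all genes, and the step from low to high had opposite signs between constructs, -0.12 for WT minus ET and 0.19 for K412R minus the libraries labelled K238R. Chromosome 1 showed the reverse in K412R, with medians of -0.122 to -0.104 there against 0.0624 to 0.143 in WT, and -0.0921 to 0.0993 in the low set. For WT minus ET, the log2 fold changes were 0.91 for Krt7, 1.23 for Krt6a, 1.14 for Itgb7 and 0.33 for Fbxo32. For K412R minus the libraries labelled K238R, they were 1.26 for Krt7, 1.76 for Krt6a, 1.201 for Itgb7 and 0.93 for Fbxo32. The part of the chromosome-wide levels in these and other single-gene differences was not tested. Without the genes of chromosomes 1 and 15, a setting added after the medians were seen, 52 genes were higher and 41 lower without overlap, and 1 gene was called.

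**Figure D4:**
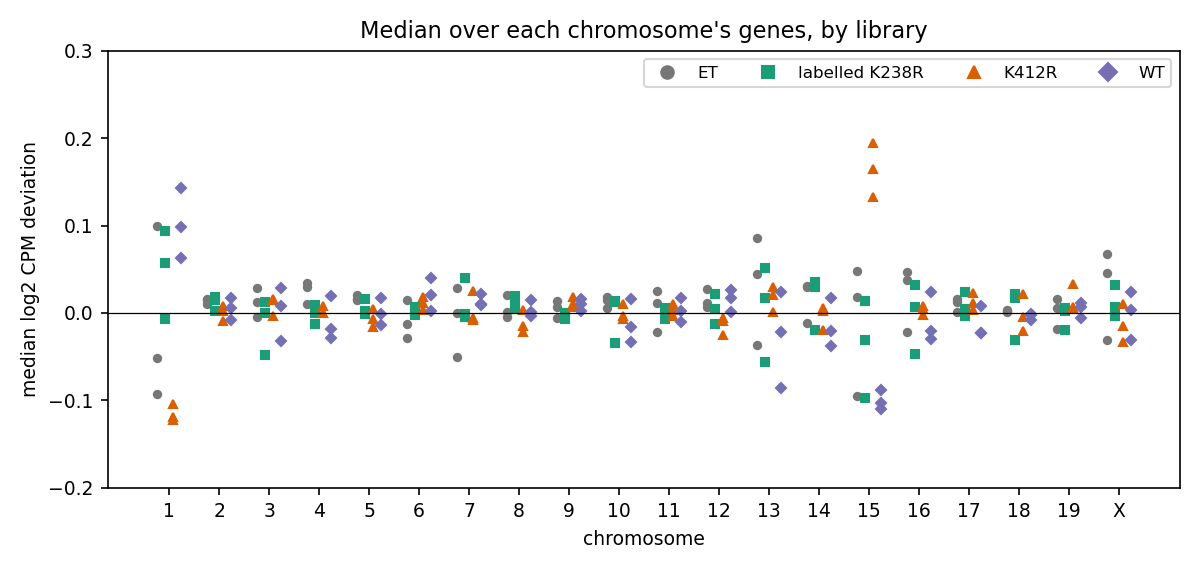
Median over the tested genes of each chromosome of log2 CPM minus the gene's mean over the 12 libraries, 1 symbol per library, by labelled group. The 3 K412R libraries lie at 0.133 to 0.195 on chromosome 15 and at -0.122 to -0.104 on chromosome 1.

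Keratinocyte genes stood higher in the high set. All 14 tested members of the list of 18 had a positive log2 fold change, with a median of 0.89 against -0.01 over all genes. By the 2-fold criterion 7 of 14 were higher and 0 lower, against 1.58% of all genes, and 4 were higher without overlap, against 0.353%. With all libraries 0 were called by edgeR and 8 by DESeq2, which called 589 of 18398 genes. An unadjusted p under 0.05 was reached by 10, all higher. Krt5, the keratin of basal epidermal cells, was at 14.4, 26.7 and 48.5 CPM in the low set and at 47.6, 60.1 and 87.5 CPM in the high set, a log2 fold change of 1.14 (standard error 0.27). Its partner Krt14 was at 3.78, 6.28 and 11.5 CPM against 12.2, 13.2 and 16.3 CPM, a log2 fold change of 1.04 (standard error 0.23) without overlap. Krt1 and Krt10, the keratins of differentiated epidermal layers, had log2 fold changes of 0.19 (standard error 0.26) and 0.01 (standard error 0.18). The median of the list was 0.84 for WT minus ET and 1.03 for K412R minus the libraries labelled K238R, 2 comparisons without a shared library. Its median without the 3 members on chromosome 15 was 0.77. ET replicate 2 stood at a median deviation of 0.196 against -0.877 to -0.221 in the other low libraries and 0.167 to 0.709 in the high set. Without it 9 of the 14 members were called higher, against 7.18% of all genes, among them Krt5 (log2 fold change 1.41, adjusted p = 0.00606 by edgeR), Krt14 (1.38, adjusted p = 0.000407) and Trp63, the master regulator of stratified epithelia (0.95, adjusted p = 0.00497).

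Genes of motile cilia showed the same direction. Of 24 members 23 had a positive log2 fold change, with a median of 0.53, and 17 had an unadjusted p under 0.05 in that direction against 1 in the other. By the 2-fold criterion 4 were higher, against 1.58% of all genes, 0 were without overlap, and 0 were called by edgeR and 5 by DESeq2. Foxj1, the transcription factor that drives motile ciliogenesis, had a log2 fold change of 0.19 (standard error 0.12), and the radial spoke genes Rsph1 and Rsph4a had 0.65 (standard error 0.26) and 0.52 (standard error 0.17). Dnah5, an outer dynein arm heavy chain that lies on chromosome 15, was at 8.21, 10.2 and 22.4 CPM in the low set and at 20.4, 36.9 and 39.6 CPM in the high set, a log2 fold change of 1.47 (standard error 0.24, adjusted p = 0.0678 by edgeR). Of the low libraries ET replicate 2 was the highest, and it reached the high range for Dnah5. The list's median was 0.59 for WT minus ET and 0.53 for K412R minus the libraries labelled K238R. Its level was 0.494 in ET replicate 2, -0.774 to -0.0679 in the other low libraries and -0.0596 to 0.495 in the high set. Without that library 20 of the 24 members were called higher, against 7.18% of all genes, and 0 lower, with Dnah5 at a log2 fold change of 1.77 (adjusted p = 0.000661) and Mcidas, a regulator of multiciliated cells, at 2.06 (adjusted p = 0.00542).

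Endothelial and glial genes stood higher by a smaller step. All 12 endothelial members had a positive log2 fold change (median 0.30), 5 with an unadjusted p under 0.05, and 0 were called by edgeR or DESeq2. Their summed level was 245 to 426 CPM in the low set and 319 to 398 CPM in the high set, ranges that overlapped, and ET replicate 2 again stood apart, at a median deviation of 0.446 against -0.477 to -0.0985 in the other low libraries. The first members of the list, Pecam1, Cdh5, Kdr and Tek, had log2 fold changes of 0.18, 0.38, 0.33 and 0.48 (standard errors of 0.13, 0.14, 0.12 and 0.20). Without ET replicate 2, 9 of 12 were called higher, against 7.18% of all genes, among them Tie1 (0.88, adjusted p = 0.00485 by edgeR) and Vwf (1.01, adjusted p = 0.00606). In the list of glia and neural crest 12 of 14 were positive (median 0.39), 6 with an unadjusted p under 0.05 and 6 called by DESeq2, and the median deviation was -0.606 to 0.236 in the low set and -0.180 to 0.589 in the high set. Erbb3, the neuregulin receptor of Schwann cells, was at 9.45 to 14.0 CPM against 13.2 to 18.8 CPM (log2 fold change 0.58, standard error 0.11). Once ET replicate 2 was left out, 3 of 14 were called higher, against the same 7.18%, among them Erbb3 and Slc1a3, an astrocyte glutamate transporter. Beside Itgb7 and Tlr4, which blood cells also express, 14 of 15 macrophage genes were positive (median 0.21), with a summed level of 259 to 434 CPM in the low set and 334 to 499 CPM in the high set. The part of host cells in these differences was not tested.

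The 1 called gene, Gm15128, is a predicted gene of a multicopy family on the X chromosome. Its counts were 17, 22 and 26 in ET, 8, 4 and 4 in K412R, 49, 26 and 21 in the libraries labelled K238R and 0 in all 3 WT libraries. Against the mean of the low set, 1.48 CPM, WT was at least 8.6-fold lower, with a floor of 3 counts per WT library, and K412R was at a mean of 0.301 CPM. The fitted log2 fold change, -4.98 (adjusted p = 0.0211 by edgeR), depends on the prior count and is no measure of that bound. Counts of related copies were erratic, such as 0, 0 and 66 for Gm15093 and 21, 0 and 0 for Gm15127 in ET, so the split of reads within the family leaves the value uncertain. Its call was lost in 7 of the 12 omissions of 1 library, those of ET replicates 1 and 3, WT replicates 2 and 3, K412R replicates 2 and 3 and replicate 2 of the libraries labelled K238R, with fitted values of -5.06 to -4.87 in these.

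The other leading genes that were lower without overlap included a meiotic gene, 2 genes of RNA processing and several of little known function, none of them called with all libraries. Ccnb1ip1 encodes a ubiquitin ligase that limits crossovers in meiosis. It was at 5.90, 6.33 and 8.16 CPM in the low set and at 2.33, 3.28 and 4.17 CPM in the high set, a log2 fold change of -1.05 (standard error 0.16, adjusted p = 0.0526 by edgeR). Erdr1x_1, a copy of a gene of the pseudoautosomal region whose reads can be shared with its other copy, was at 313, 344 and 361 CPM against 179, 237.6 and 292 CPM, a log2 fold change of -0.53 (standard error 0.08). For both, each of the 6 low libraries lay above each of the 6 high ones. Gm4779, a predicted gene on the X chromosome, was at 2.53, 5.71 and 11.4 CPM against 1.19, 1.88 and 2.28 CPM, a log2 fold change of -1.73 (standard error 0.29). Cnpy1, a regulator of FGF signalling at the midbrain-hindbrain boundary, was at 16.6 to 27.4 CPM against 7.71 to 15.1 CPM, a log2 fold change of -0.81 (standard error 0.17). Platr4, a noncoding RNA of pluripotent cells, had a log2 fold change of -1.32 (standard error 0.27) at levels of 0.935 to 1.81 CPM and 0.283 to 0.875 CPM. The others were Pxylp1, a xylose phosphatase of proteoglycan synthesis (-0.44), Ints7, an Integrator subunit (-0.42), Pcbp4, an RNA-binding protein (-0.35), and Clk2, a kinase of splicing factors (-0.34). Without ET replicate 2 all 10 leading lower genes were called, at adjusted p between 0.00186 and 0.0237.

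Most germ cell and meiosis genes stood lower in the high set. In the germ cell list 19 of 22 tested members of 30 had a negative log2 fold change (median -0.66), 5 were lower by the 2-fold criterion against 1.29% of all genes. An unadjusted p under 0.05 was reached by 9, all lower, and 0 were called by edgeR and 5 by DESeq2. The first members were Ddx4, an RNA helicase of germ cells, at 3.65, 4.59 and 7.72 CPM in the low set and 1.67, 3.04 and 4.14 CPM in the high set (log2 fold change -0.68, standard error 0.18), and Dazl, an RNA-binding protein of germ cells, at 3.10, 12.8 and 34.5 CPM and 0.227, 3.598 and 8.11 CPM (-2.42, standard error 0.60). Dppa3 and Prdm1, factors of primordial germ cells, had -1.34 (standard error 0.63) and -0.03 (standard error 0.14). In the meiosis list 19 of 24 were negative (median -0.35), with 9 at an unadjusted p under 0.05, all lower, 6 lower by the 2-fold criterion, 0 called by edgeR and 5 by DESeq2. Stra8, which licenses meiotic entry, was at 1.75, 5.29 and 12.2 CPM against 0.0567, 1.31 and 3.97 CPM (-2.50, standard error 0.60), and the meiotic cohesin Rec8 was at 7.25, 13.6 and 15.1 CPM against 4.53, 5.85 and 8.87 CPM (-0.95, standard error 0.21). The synaptonemal complex genes Sycp1 and Syce1 stood at -1.98 (standard error 0.37) and -1.42 (standard error 0.27), both with an adjusted p of 0.107 by edgeR. For both lists the median was negative in either library-disjoint step, -0.63 and -0.64 for WT minus ET and -0.40 in each for K412R minus the libraries labelled K238R. Without ET replicate 2, 7 of 25 germ cell and 6 of 24 meiosis genes were called lower, against 4.82% of all genes. That library stood apart from the other low ones in both lists, at a median deviation of -0.326 against 0.139 to 0.805 for germ cell genes and -0.167 against 0.222 to 0.556 for meiosis genes, and it held the lowest of the low values for Dazl, Stra8 and Rec8.

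**Figure D5:**
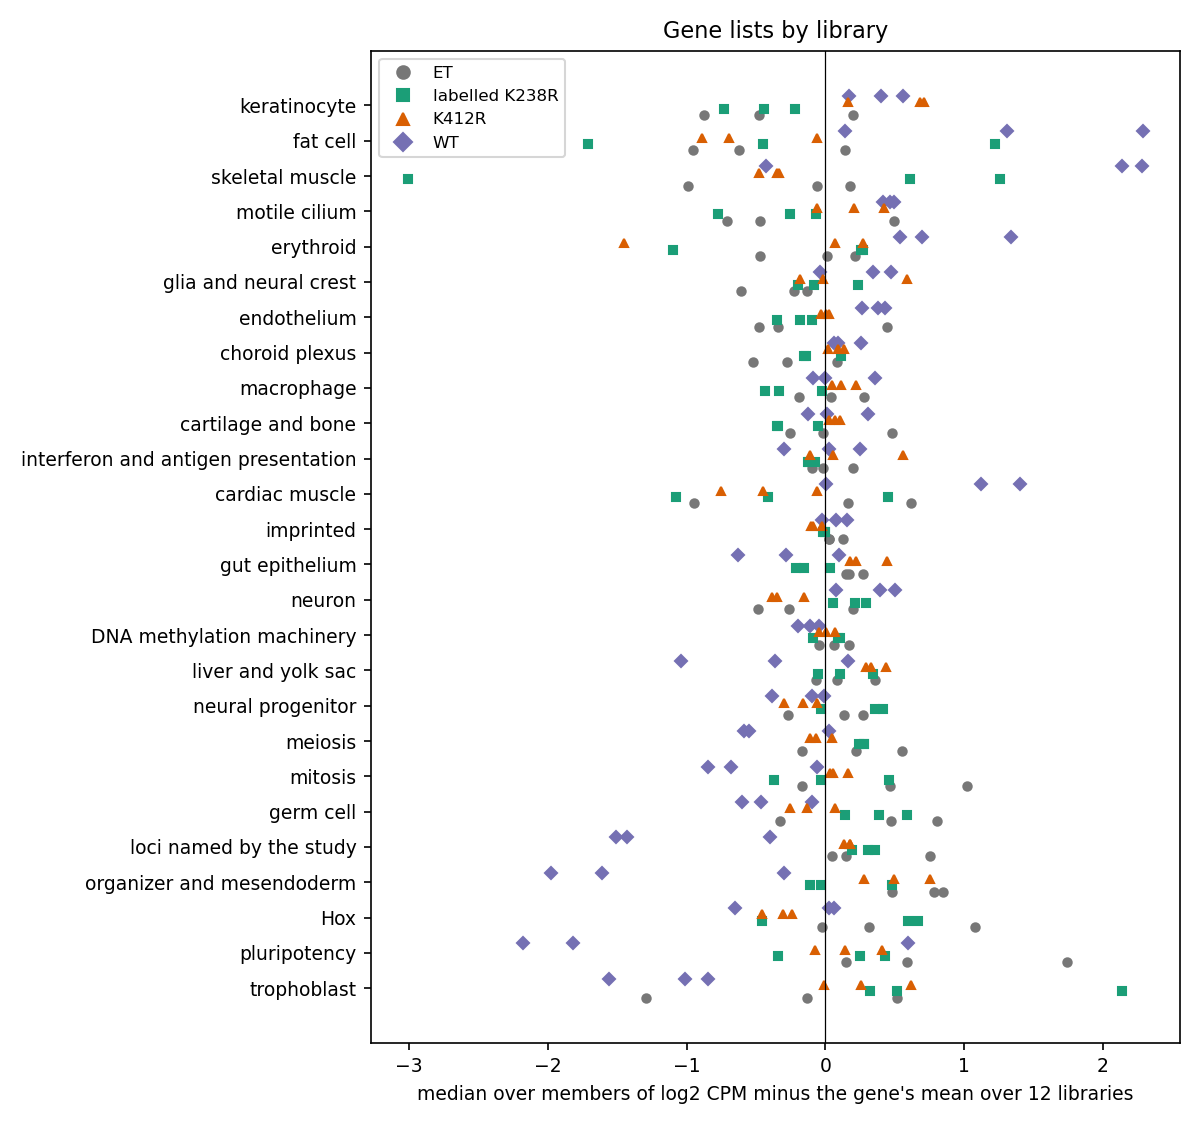
Median over the tested members of each of 26 gene lists of log2 CPM minus the gene's mean over the 12 libraries, 1 symbol per library, ordered by the list's median log2 fold change between the sets. Keratinocyte genes lie at 0.167 to 0.709 in the high set and -0.877 to 0.196 in the low set, and pluripotency genes reach -1.82 and -2.18 in WT replicates 2 and 3.

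Mitosis genes stood lower on average in the high set, but the ranges of the sets overlapped. Their step was negative for WT minus ET and near 0 for K412R minus the libraries labelled K238R. The list's median deviation was -0.371 to 1.02 in the low set, highest in ET replicate 3, and -0.846 to 0.163 in the high set. K412R stood at 0.0329 to 0.163, above ET replicate 2 (-0.167) and replicates 2 and 3 of the libraries labelled K238R (-0.371 and -0.0345). Each of the 24 members had a negative log2 fold change (median -0.49), 18 with an unadjusted p under 0.05 and 0 by the 2-fold criterion. Of them 0 were called by edgeR and 1 by DESeq2, which called 589 of 18398 genes. Mki67, a marker of cycling cells, was at 295, 436 and 728 CPM in the low set and 206, 338 and 405 CPM in the high set (log2 fold change -0.53, standard error 0.19), and Top2a was at 142, 225 and 417 CPM against 98.4, 185 and 221 CPM (-0.53, standard error 0.23). Ccnb1 and Ccnb2, the cyclins of mitotic entry, had -0.59 (standard error 0.26) and -0.49 (standard error 0.18). The list's median was -1.04 for WT minus ET and 0.00 for K412R minus the libraries labelled K238R. Pluripotency genes (median -0.79, 20 of 22 negative) had the same split, -1.75 and 0.00, as had the list of organizer and mesendoderm genes (median -0.73, 15 of 16 negative), with -1.83 and 0.44. This split holds for 1 pairing of the constructs. For the libraries labelled K238R minus ET the medians were -0.47 for mitosis, -0.77 for pluripotency and -0.615 for organizer genes. For WT minus K412R they were -0.62, -0.47 and -1.72. Medians of K412R minus ET are not given for lists. In the organizer list the first members T, Eomes, Mixl1 and Gsc had log2 fold changes of -0.49, -0.49, -1.28 and -1.02 (standard errors of 0.29, 0.22, 0.50 and 0.42). Of pluripotency genes Pou5f1 had -0.81 (standard error 0.54), Nanog -1.08 (standard error 0.43) and Sox2 -0.23 (standard error 0.11). In both lists WT replicates 2 and 3 were the lowest libraries. ET replicate 3 was the highest in both, at median deviations of 1.74 for pluripotency and 0.847 for organizer genes. Without WT replicate 1 the medians were -1.85 for pluripotency and -1.25 for organizer genes. In that omission 6 and 4 of their members were called, against 21 of 18783 genes, and 0 members with all libraries. WT replicate 1 stood at a median deviation of 0.599 for pluripotency genes, against -1.82 and -2.18 in the other WT libraries. For organizer genes it stood at -0.297 against -1.61 and -1.98. Leaving out ET replicate 2, 12 of 24 mitosis, 1 of 24 pluripotency and 3 of 16 organizer genes were called lower, against 4.82% of all genes, and 1 pluripotency gene, Klf5, was called higher.

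Hox genes, which set position along the body axis, were lower at most loci. Of 32 tested members of 39, 29 had a negative log2 fold change (median -0.78), 16 with an unadjusted p under 0.05, and 12 were lower by the 2-fold criterion, against 1.29% of all genes, while 0 were without overlap, 0 were called by edgeR and 2 by DESeq2. Hoxa2, Hoxa3 and Hoxa4 had log2 fold changes of -0.47, -0.74 and -1.04 (standard errors of 0.22, 0.24 and 0.33). The list's level ran from -0.456 to 1.08 in the low set and from -0.651 to 0.0626 in the high set, and the low values included replicate 1 of the libraries labelled K238R at -0.456. Hox members on chromosome 15, the Hoxc genes, were 7 of the 32, and the median without them was -0.75. With ET replicate 2 left out, 11 of 32 were called lower, against 4.82% of all genes, among them Hoxc4 (log2 fold change -1.70, adjusted p = 0.00122 by edgeR) and Hoxb3 (-1.27, adjusted p = 0.00186). Neural progenitor genes were negative in 21 of 26 (median -0.33), 8 with an unadjusted p under 0.05. Their first members Sox1, Sox2, Sox3 and Sox21 had -0.51, -0.23, -0.69 and -0.19 (standard errors of 0.17, 0.11, 0.29 and 0.12), and 8 of 26 were called lower without ET replicate 2, against the same 4.82%. Neuron genes were at a median of -0.05, with 0.39 for WT minus ET and -0.49 for K412R minus the libraries labelled K238R.

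Most genes of the DNA methylation machinery stood lower in the high set by a small step. Of 22 tested members 17 had a negative log2 fold change (median -0.14). An unadjusted p under 0.05 was reached by 7, all lower, against 1610 lower among all 18404 genes. By the 2-fold criterion 0 differed, and 0 were called by edgeR and 1 by DESeq2, which called 589 of 18398 genes. Dnmt1, the maintenance methyltransferase, was at 171, 185 and 253 CPM in the low set and 152, 163 and 177 CPM in the high set (log2 fold change -0.27, standard error 0.10), and its targeting factor Uhrf1 had -0.57 (standard error 0.22). Dnmt3a, the enzyme that Dnmt3L stimulates, was at 192, 210 and 222 CPM against 186, 206 and 234 CPM (0.01, standard error 0.07). Dnmt3b was at 14.1, 24.9 and 68.7 CPM against 4.53, 24.0 and 34.4 CPM (-0.47, standard error 0.44). Of 13 tested loci that the study itself names as targets, 11 were negative (median -0.71) and 2, Dazl and Stra8, were lower by the 2-fold criterion. The study named these loci from expression in its ES cells and, for some, from DNA methylation, Dnmt3L binding and published Dnmt3A2 binding. The teratomas came from such ES cells, so the direction of these loci is no independent evidence. Their median was -1.27 for WT minus ET and 0.10 for K412R minus the libraries labelled K238R. Imprinted genes stood at a median of -0.01, with 14 of 29 positive.

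Trophoblast genes, present at low levels, were negative in 8 of 9 (median -1.28, with -2.0 for WT minus ET and -1.43 for K412R minus the libraries labelled K238R). By the 2-fold criterion 4 of 9 were lower, against 1.29% of all genes, at a summed level of 3.10 to 28.8 CPM in the low set and 1.70 to 9.63 CPM in the high set. Their median deviation was -1.29 to 2.14 in the low set and -1.56 to 0.617 in the high set, ranges that overlapped. Replicate 1 of the libraries labelled K238R stood at 2.14, against 0.518 and 0.319 in its replicates 2 and 3, and ET replicate 2 at -1.29. K412R stood at -0.00794 to 0.617, and the list's median for WT minus K412R was -1.79. Skeletal muscle genes had a median of 0.62 with 0 of 28 at an unadjusted p under 0.05, and the 2 library-disjoint steps had opposite signs, 1.93 and -0.83. Medians were 0.68 for 7 fat cell genes, 0.41 for 7 erythroid genes, 0.22 for 11 choroid plexus genes, 0.19 for 18 cartilage and bone genes, 0.19 for 16 interferon and antigen presentation genes, 0.06 for 17 cardiac muscle genes, -0.03 for 15 gut epithelium genes and -0.14 for 11 liver and yolk sac genes. In these 8 lists at most 2 members were called in either direction without ET replicate 2, except for 3 choroid plexus genes that were higher.

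Whether the 2 constructs of the high set differed from the low set in the same way was asked with library-disjoint steps. Across 18404 genes, which are not independent replicates, the log2 fold changes of WT minus ET and of K412R minus the libraries labelled K238R had a Pearson r of 0.0804 and a Spearman rank correlation of -0.0577, and 47.2% of genes had the same sign. In the other pairing, WT minus the libraries labelled K238R with K412R minus ET, r was 0.193, the rank correlation was 0.243 and 59.9% had the same sign. By the test of the difference between the steps 19 genes were called (0.103%), 17 with the lower value for WT minus ET. Cer1, an inhibitor of Nodal, had a log2 fold change of -2.88 for WT minus ET and 1.05 for K412R minus the libraries labelled K238R (adjusted p of the difference 0.0388 by edgeR), and Fendrr, a noncoding RNA of lateral mesoderm, had -1.64 and 1.45 (adjusted p = 0.0426). The imprinted gene Mest had the opposite pattern, 0.75 and -1.85 (adjusted p = 0.0370). These 3 genes were picked after their values were seen. Without ET replicate 2 the number was 2720, and it was 0 in 9 of the 11 other omissions, with 594 without WT replicate 1 and 1 without K412R replicate 2.

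Within the high set WT and K412R differed in more genes than the sets did with all 12 libraries, and in fewer without ET replicate 2. Between WT and K412R 371 genes were called (2.02%), 126 higher and 245 lower in WT, and 4188 had an unadjusted p under 0.05. Within the low set, between ET and the libraries labelled K238R, the edgeR test called 0 genes (0%), with 1026 at an unadjusted p under 0.05 and 14 called by DESeq2. Of the variance of the 500 most variable genes, 17.3% lay between the high and low sets, 17.3% between WT and K412R, 5.91% between ET and the libraries labelled K238R, and 59.5% between teratomas of 1 group. The count between WT and K412R was lowest at 10, with K412R replicate 3 left out, and highest at 1539, with ET replicate 2 left out, and it was 12, 14 and 44 without WT replicate 3, K412R replicate 1 and WT replicate 2.

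Few genes followed the amount of Dnmt3l across its 3 levels. Of 18404 genes, 4 (0.0217%) formed 3 levels without overlap upward in the order low, K412R, WT, and 7 (0.038%) did so downward. In the order low, WT, K412R 5 genes (0.0272%) did so upward and 1 (0.00543%) downward. Pcdhga1 was at 8.21 to 9.58 CPM in the low set, 11.1 to 11.5 CPM in K412R and 12.9 to 14.2 CPM in WT. Atp2c2, a secretory-pathway calcium pump, was at 0.790 to 2.26, 2.45 to 2.69 and 3.22 to 3.69 CPM, and Itfg1, an integrin-alpha FG-GAP repeat protein, at 112 to 127, 128 to 131 and 135 to 149 CPM. The fourth was 4930550C14Rik, a gene without a known role, at 0.579 to 0.935, 0.968 to 1.28 and 1.36 to 1.43 CPM. Downward, Erdr1x_1 was at 313 to 361, 242 to 292 and 179 to 233 CPM, Pxylp1 at 29.8 to 38.6, 23.9 to 29.6 and 20.4 to 22.9 CPM, and Psma8, a proteasome subunit of meiotic cells, at 0.643 to 1.86, 0.323 to 0.583 and 0.119 to 0.278 CPM. Lrrc20 spanned a narrower range, 10.8 to 14.6, 10.3 to 10.8 and 9.35 to 10.01 CPM. Gm15128, the called gene described above, also fell in this order, at 0.955 to 2.60, 0.215 to 0.456 and 0 CPM. Among the genes named in this paragraph, the gap between the low set and K412R exceeded the spread within the low set for Pcdhga1 alone.

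Inside the high set the relation to Dnmt3l was tested with the construct as a term, since its log2 level fell into separate ranges of 4.64 to 5.32 in K412R and 7.35 to 7.74 in WT. The edgeR test of that slope called 0 genes (0%), with 602 at an unadjusted p under 0.05, a smallest adjusted p of 0.970 and 17 called by DESeq2. With only 3 residual degrees of freedom the test is weak, and the count was 137 without K412R replicate 3 and 3 without WT replicate 1. Without the construct term 2451 genes were called, but that slope cannot be told apart from the difference between WT and K412R. The lowest p in the positive direction belonged to Pla2g4b, a phospholipase, Mylk4, a myosin light chain kinase of muscle, and Rn7s1, a signal recognition particle RNA, none of them called. Pla2g4b and Rn7s1 had no count in K412R replicate 3, the high library with the least Dnmt3l, and Pla2g4b had none in WT replicate 1 either. Ccdc17, Entpd4 and Chrnb3 led the negative direction, and Ccdc17 was at 26.2, 21.8 and 22.3 CPM in WT, 8.49, 9.39 and 18.98 CPM in K412R and 3.28 to 18.3 CPM in the low set.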

How the data were processed

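RNA from 12 teratomas was sequenced as poly(A)-selected libraries. By the study's methods the authors used fastp for trimming, STAR for mapping and Salmon for gene quantification, the submitters' processing notes name GRCm39, and the authors deposited 1 file of estimated counts per library (38986 genes), without normalization. Versions are not given in the sources used here. The estimated counts were rounded to whole numbers. Genes were filtered by filterByExpr over the 4 labelled groups (18405 kept), scaled by TMM and tested with the quasi-likelihood test of edgeR 4.0.16 in R 4.3.3, with 1 mean per group and Benjamini-Hochberg adjustment. The set contrast was the mean of WT and K412R minus the mean of ET and K238R, and p-values measure the spread between these samples, since the labels do not name separate animals. The slope on log2 CPM of Dnmt3l (prior count 2) used the 6 high libraries. DESeq2 1.42.0, other scalings, no filter, the replicate number as a block and the omission of each library were tried. The estimator was tested on simulated data. Replicates of a group differed beyond sampling noise (chi-square per degree of freedom 10.9 or more). Leading genes were those with at least 1 CPM in 1 set and no overlap, called genes first by fold change and then by p, up to 10 per direction. In addition, graded genes, the first slope genes and, of each list, up to 4 called members or else its first members were named, and other members were picked after their values were seen. The sets, lists and rules were chosen with earlier results of these data known. Chromosomes came from the RefSeq gene table for GRCm38.p6, which matched 97% of tested genes by symbol or synonym, and no coordinates on GRCm39 are given. Depth was 16957677 to 18546100 counts per library, so genes under about 1 CPM rest on few counts. Some genes that these rules name are not reported here.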

Additional observations from a re-analysis of the deposited data

Results flagged for a closer look

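Of 104 groups of 6 libraries examined for 1 library far from the others, 9 held one, and chance gives about 1 in 20. In the low set Dnmt3l itself was at 7.73 CPM in ET replicate 3 against 0.526 to 2.19 CPM in the others, and Psma8 was at 1.86 CPM there against 0.643 to 1.01 CPM. ET replicate 2 stood above the other low libraries for F3 (25.2 CPM against 15.7 to 17.9 CPM), for Arhgef5 (17.8 CPM against 11.9 to 14.0 CPM) and for the median deviation of interferon and antigen presentation genes (0.202 against -0.128 to -0.0196). The median deviation of imprinted genes was 0.131 in ET replicate 3 against -0.018 to 0.0235. Gm15128 was at 2.6 CPM in replicate 1 of the libraries labelled K238R against 0.955 to 1.47 CPM. In the high set K412R replicate 3 stood above the others for Krt7 (62.3 CPM against 39.1 to 47.5 CPM) and Pof1b (5.05 CPM against 2.34 to 3.22 CPM).

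The step from low to high Dnmt3l differed between WT minus ET and K412R minus the libraries labelled K238R for 19 genes by the edgeR test of that difference, at adjusted p between 0.0351 and 0.0467.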

How the results depend on the processing

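With DESeq2 size factors or without Gm26917 every count of genes stayed within 1.5 times its value. Without the filter on low counts 57 genes were called between the sets, 613 between WT and K412R, 163 for the difference between steps, 3 for the slope and 1100 reached the 2-fold criterion. DESeq2 called 589, 1676, 1193 and 17 in the same order, and 14 between the libraries labelled K238R and ET. With 1 mean per set, edgeR called 0 genes between the sets (2514 at an unadjusted p under 0.05). Without the construct term the slope gave 2451, and without chromosomes 1 and 15 WT and K412R differed in 206. Omitting 1 library gave 0 to 2253 calls between the sets, 10 to 1539 between WT and K412R, 0 for K238R minus ET in each case, 0 to 2720 for the difference between steps and 0 to 137 for the slope. Genes at the 2-fold criterion numbered 404 to 906, the highest without ET replicate 2, and genes without overlap numbered 132 to 742, with 242, 204, 200 and 191 without K412R replicate 1, WT replicate 1, K412R replicate 2 and replicate 2 of the libraries labelled K238R. The cause was not tested.

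Same-numbered libraries of different groups correlated at -0.263 to 0.391 in their deviations, over 0.1 in 7 of 18 pairs. Differently numbered libraries of different groups correlated at -0.444 to 0.407, over 0.1 in 7 of 36 pairs. Whether the replicate numbers pair the samples was not tested further. With the replicate number as a block, edgeR called 0 genes between the sets (3876 at an unadjusted p under 0.05), 1154 between WT and K412R, 531 for the difference between steps and 0 for K238R minus ET. Of the 25 leading and graded genes none changed sign in any setting, and slope genes and other list members were not examined for it. Of 494 list medians 3 moved beyond the spread between replicates, that of choroid plexus to 0.405 without ET replicate 2 and those of pluripotency and organizer genes without WT replicate 1. Depth limits genes such as Psma8, with 2 to 33 counts per library.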

Other observations

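Genes of the Y chromosome, picked after their values were seen, are given as values. Neither of the 2 named here passed the adjusted threshold between the sets, between WT and K412R or between ET and the libraries labelled K238R, and Eif2s3y was among the 19 genes whose step from low to high differed between constructs. R1 is a male line and the hosts were male. Eif2s3y, a translation initiation factor subunit, was at 106.7, 78.4 and 92.4 CPM in ET, 52.8, 40.4 and 38.6 CPM in the libraries labelled K238R, 68.9, 66.7 and 73.0 CPM in K412R and 54.7, 38.7 and 34.4 CPM in WT. Ddx3y, an RNA helicase, was at 36.8 to 58.1 CPM in ET, 24.5 to 35.3 CPM in the libraries labelled K238R, 51.2 to 57.0 CPM in K412R and 33.4 to 38.4 CPM in WT. The K412R libraries lay above the WT libraries for both genes, at adjusted p of 0.0638 and 0.0704 (edgeR), neither of them called.

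Hand1, a transcription factor of heart and extraembryonic mesoderm, was the 1 gene of the cardiac list without overlap. It was at 0.818 to 10.2 CPM in the low set and 0 to 0.817 CPM in the high set, an adjusted p of 0.140 by edgeR.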
